A study of Homo sapiens with 6 samples.

Results

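The heat shock proteins, the J-domain proteins and the BAG proteins were followed in HCC-LM3 cultures given apigenin or its solvent control; HCC-LM3 is an established line from a human hepatocellular carcinoma. Members were taken by gene symbol from the families of HSP70, HSP110, HSP90, HSP60/HSP10 and small heat shock proteins, the DNAJA, DNAJB and DNAJC families, and BAG1 to BAG6. This gave 77 of the 23059 genes listed. Of these, 68 passed the filter on low counts and were tested. The other 9 (DNAJA4, DNAJB13, DNAJB7, DNAJC5B, DNAJC5G, HSPA12B, HSPB2, HSPB3 and HSPB7) had between 0 and 22 reads in a library, and several are known from muscle, testis or cilia. By the place where each protein works, 42 members were assigned to the cytosol, 13 to the endoplasmic reticulum (ER), 8 to mitochondria, 3 to the nucleus and 5 to vesicles or endosomes, and 6 were left without a place. These places were assigned from general knowledge, and several J-domain proteins have more than a single location.

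The study asked how apigenin, a plant flavone, acts on tumour angiogenesis through the making of microvesicles. Total RNA was sequenced from 3 biological replicates with DMSO and 3 with apigenin. All 6 libraries came from the same line, with no genetic change and no other agent named. Neither a dose of apigenin nor a treatment time stands in the sources used here. A bulk library cannot tell fewer cells with a transcript from less of that transcript in each cell.

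HSP70 proteins bind exposed hydrophobic stretches of unfolded proteins and release them in a cycle driven by ATP. J-domain proteins bring clients to HSP70 and start ATP hydrolysis, while BAG and HSP110 proteins make HSP70 release ADP and its client. Each compartment has its own set: HSPA8 and the stress-inducible HSPA1A in the cytosol, HSPA5 (BiP) in the ER and HSPA9 (mortalin) in mitochondria. The transcription factor HSF1 drives the cytosolic genes through heat shock elements, and the unfolded protein response drives the ER genes through ER stress elements.

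Promoter sequences were available for 69 of the 77 members, and the windows below hold those elements in a chosen part of the members named here. DNAJB6 among them did not pass (log2 fold change 0.16 ± 0.068, SE; adjusted p = 0.18, edgeR). Each promoter covers 250 bases before and 50 bases after the annotated start in the RefSeq annotation of GRCh38.p14. The heat shock element was searched as the unit GAA repeated in alternating direction with 2 bases between units, on both strands, either as 3 units or as 2 units, the shorter form being part of the longer. The ER stress element was searched as CCAAT and CCACG with 9 bases between them, on both strands. All member matches before the start to the 3-unit form and to the ER stress element are shown. The 2-unit form alone is shown only for HSPA1A and HSPA1B, which rose. It was also found before the start in members that did not pass, among them BAG2, DNAJC15, HSPB1, HSPB6 and HSPB8. Each window runs 5′ to 3′ on the strand of its gene, with 20 bases on each side of the match, and capitals mark the match.
HSPA6, chr1:161524446-161524498, plus strand, 3 units: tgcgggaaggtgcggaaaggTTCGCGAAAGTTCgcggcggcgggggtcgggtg
HSPA8, chr11:123062334-123062386, minus strand, 3 units: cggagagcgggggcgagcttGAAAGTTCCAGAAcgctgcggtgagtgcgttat
HSPA8, chr11:123062159-123062211, minus strand, 3 units: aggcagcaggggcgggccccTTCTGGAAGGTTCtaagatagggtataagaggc
DNAJB6, chr7:157336853-157336905, plus strand, 3 units: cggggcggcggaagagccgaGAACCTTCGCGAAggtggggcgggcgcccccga
HSPA1A, chr6:31815417-31815464, plus strand, 2 units: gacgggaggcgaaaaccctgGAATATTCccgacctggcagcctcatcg
HSPA1B, chr6:31827613-31827660, plus strand, 2 units: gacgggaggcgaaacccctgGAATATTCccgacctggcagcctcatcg
HSPA5, chr9:125241371-125241429, minus strand, ER stress element: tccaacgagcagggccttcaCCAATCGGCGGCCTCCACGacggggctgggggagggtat
HSP90B1, chr12:103930196-103930254, plus strand, ER stress element: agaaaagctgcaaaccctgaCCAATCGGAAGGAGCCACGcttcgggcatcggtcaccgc
HSP90B1, chr12:103930301-103930359, plus strand, ER stress element read on the other strand: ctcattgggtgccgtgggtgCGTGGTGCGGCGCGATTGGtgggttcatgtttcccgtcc

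The 3-unit heat shock element was found in 4 of the 69 member promoters (5.80%), against 133 of 27305 RefSeq promoters (0.487%). All 4 belonged to cytosolic members, HSPA6, HSPA8, DNAJB6 and DNAJA1, the last with its match 3 to 15 bases after the start. The 2-unit form was in 13 of 37 cytosolic promoters (35.1%), in 0 of 12 ER promoters and in 2 of 8 mitochondrial promoters, against 13.7% of all RefSeq promoters. The ER stress element was in 2 of 12 ER promoters, HSPA5 and HSP90B1, against 22 of all 27305 (0.0806%). The HSPA1A and HSPA1B windows were equal at 47 of 48 bases. A match describes letters in this window and does not show binding, and promoters without a match say only that those letters were not found there.

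Library totals ran from 33882145 to 37983636 counts. At that depth, 0 reads allowed a level of up to 0.079 to 0.0885 CPM (read count relative to the scaled library total), for counting error only. Of 11 liver and hepatocellular markers, 10 were listed and 9 were above 1 FPKM (counts per gene length and library total) in every library; APOA1 ran from 0.181 to 1.48 FPKM. Their summed FPKM was 1929 to 1983 with DMSO and 1716 to 1947 with apigenin, nearly all of it KRT8 and KRT18. The other 8, among them ALB (22.6 to 54.8 FPKM over the libraries), summed to 98.9 to 103 FPKM with DMSO and 58.1 to 59.9 FPKM with apigenin, and the part of this difference in the results below was not tested. Of 9 markers of blood, endothelial and stromal cells, CD68, LUM and PECAM1 were above 1 FPKM, and the other 6, among them PTPRC, CD3E and VWF, were under 0.18; their sum was 66.3 to 70.2 with DMSO and 67.2 to 71.7 with apigenin. Relative to the DMSO mean, the apigenin libraries carried a trend with gene length. Per doubling of length, log2 CPM less that mean moved by -0.07, -0.02 and -0.15 in apigenin replicates 1, 2 and 3. The single DMSO libraries moved by 0.001, -0.005 and 0.003 around their own mean, so a trend common to them could not show. Across all tested genes, the median log2 fold change was 0.16 in the shortest of 10 length bins and -0.16 in the longest, so values with that trend removed are given beside those that it moved most. Its part in the results was not tested.

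With apigenin, 8 of the 68 tested members rose and 2 fell, and the rises were small. The 8 that rose were the HSP70 genes HSPA6, HSPA1A, HSPA1B, HSPA14 and HSPA5, the HSP70 release factors BAG3 and HSPH1, and the J-domain gene DNAJA2. The 2 that fell were the J-domain genes DNAJC22 and DNAJC13. In edgeR's quasi-likelihood test with Benjamini-Hochberg adjustment over 15173 genes at 0.05, rises made up 11.8% of the members against 2.76% of all tested genes, and falls made up 2.94% against 4.22%. The remaining 58 members did not pass. No member reached a 2-fold change, and 50 of 68 lay within 0.2 of 0 on the log2 scale. The median log2 fold change of the members was 0.05, beside 0.004 for all tested genes, and 46 of 68 (67.6%) were above 0, beside 50.8% of all genes. Removing the length trend left a median of 0.03, with 39 members above 0 (50.6% of all genes were). Then 9 members rose, against 4.63% of all tested genes, and the same 2 fell, against 5.38%: HSPA14 no longer passed, and BAG2 and DNAJB4 did. DESeq2 called 10 rises and 2 falls, against 5.34% and 7.37% of all genes it tested. Limma on log2(FPKM + 1), log2(FPKM + 0.1) and log2(FPKM + 1) without a filter called 2, 1 and 0 rises, against 1.54%, 0.866% and 0.533% of its genes, and 1 fall each, against 1.47%, 0.834% and 0.421%. In every limma fit the calls of BAG3, DNAJA2, DNAJC13, HSPA14, HSPA1A, HSPA5 and HSPH1 were lost. HSPA1B kept its call only with log2(FPKM + 1) and the filter. None of the 10 called members overlaps another listed gene, while 23 members do, so that their reads are less certain. BAG2, which overlaps RAB23, and DNAJB4, which overlaps FUBP1, are among those 23. The apigenin and DMSO libraries did not overlap in 22 members (32.4%), close to the 29.4% of all tested genes. These calls were sensitive to single libraries: the number of members that rose was 1 without DMSO replicate 1, DMSO replicate 3 or apigenin replicate 1, 2 without DMSO replicate 2, and 15 without apigenin replicate 2. With the length trend removed, it was 7 without apigenin replicate 1 and 11 without apigenin replicate 2. Rises over all genes moved widely too when a library was left out, as given in the last section. The swings were not compared fit by fit, so whether the members moved more than all genes was not tested. Shares over all genes are not given for the fits with both the trend removed and a library left out.

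**Figure D1:**
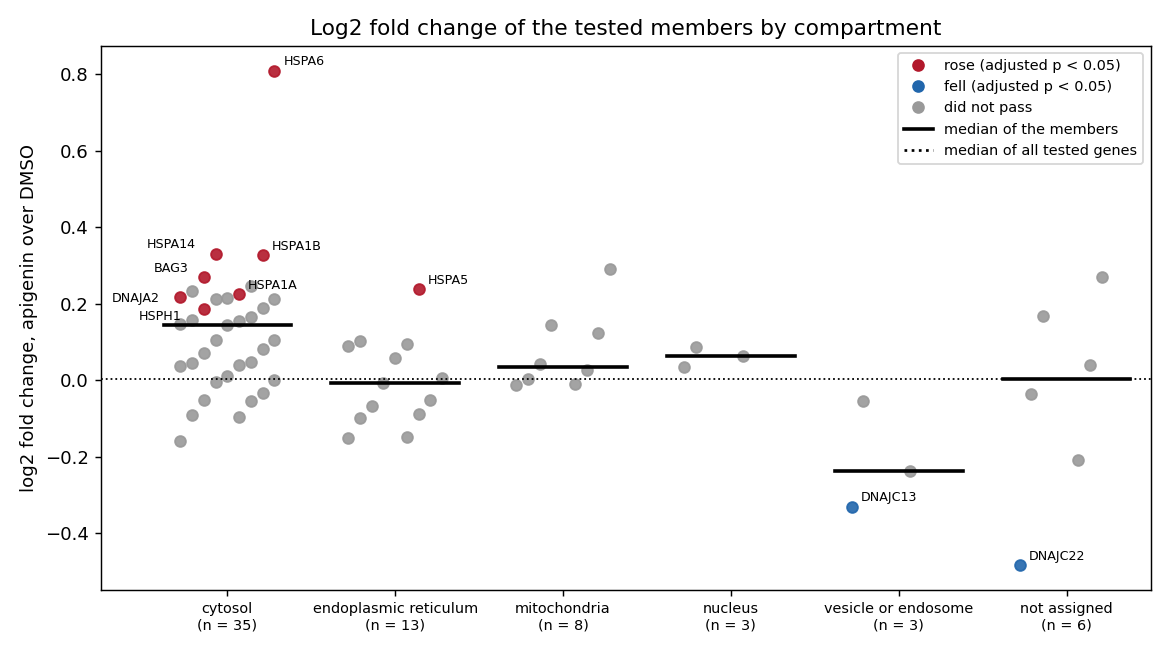
Log2 fold change (apigenin over DMSO) of each tested member, one point per gene, by the compartment of its protein; solid bars are medians of the members and the dotted line is the median of all tested genes. The cytosolic points centre on 0.14, while the ER and mitochondrial medians are -0.01 and 0.03.

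Most of the members that rose were cytosolic. Of 35 cytosolic members tested, 7 rose and 0 fell, against 2.76% and 4.22% of all tested genes. Above 0 were 28 as counted and 25 with the length trend removed, against 50.8% and 50.6% of all tested genes. Their median log2 fold change was 0.14. No cytosolic member passed as lower by DESeq2 or limma either, and 16 were higher and 0 lower at an unadjusted p under 0.05 in edgeR, against 11.7% and 12.6% of all tested genes. In the ER, 1 of 13 rose, 0 fell and the median was -0.01; at an unadjusted p under 0.05, DNAJC10 was lower, and neither DESeq2 nor limma called a fall. In mitochondria, 0 of 8 passed by edgeR, DESeq2 or limma, HSPE1 alone was under an unadjusted p of 0.05, and the median was 0.03. With the length trend removed, the medians were 0.09 in the cytosol, -0.01 in the ER and 0.02 in mitochondria. The cytosolic median by apigenin library was 0.11, 0.07 and 0.18 in replicates 1, 2 and 3, and without apigenin replicate 3 the median of the fitted changes was 0.08. A difference between compartments was not tested.

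By summed reads, the members took up 1.41% ± 0.0134 (SD, n = 3) of all counts with DMSO and 1.49% ± 0.0287 (SD, n = 3) with apigenin. The DMSO libraries held 1.41%, 1.39% and 1.42%, and the apigenin libraries 1.47%, 1.48% and 1.52%, with no overlap. The cytosolic members were at 0.905% ± 0.0094 and 0.969% ± 0.0164, and the ER members at 0.244% ± 0.0043 and 0.264% ± 0.0065, again without overlap between the groups (SD, n = 3 each). The mitochondrial members were at 0.194% ± 0.00042 and 0.199% ± 0.0066, and apigenin replicate 1 lay among the DMSO libraries. The HSP70 family held 0.445% of counts with DMSO and 0.489% with apigenin, and the HSP90 family 0.434% and 0.449%, so the shares describe mainly the abundant genes of these families. All these shares are as counted, with the length trend left in. Removing it took the log2 fold change of HSPA8 from 0.11 to 0.03, and that of HSPA5 from 0.24 to 0.23. Taken singly, 29.4% of all tested genes also had no overlap between the groups.

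**Figure D2:**
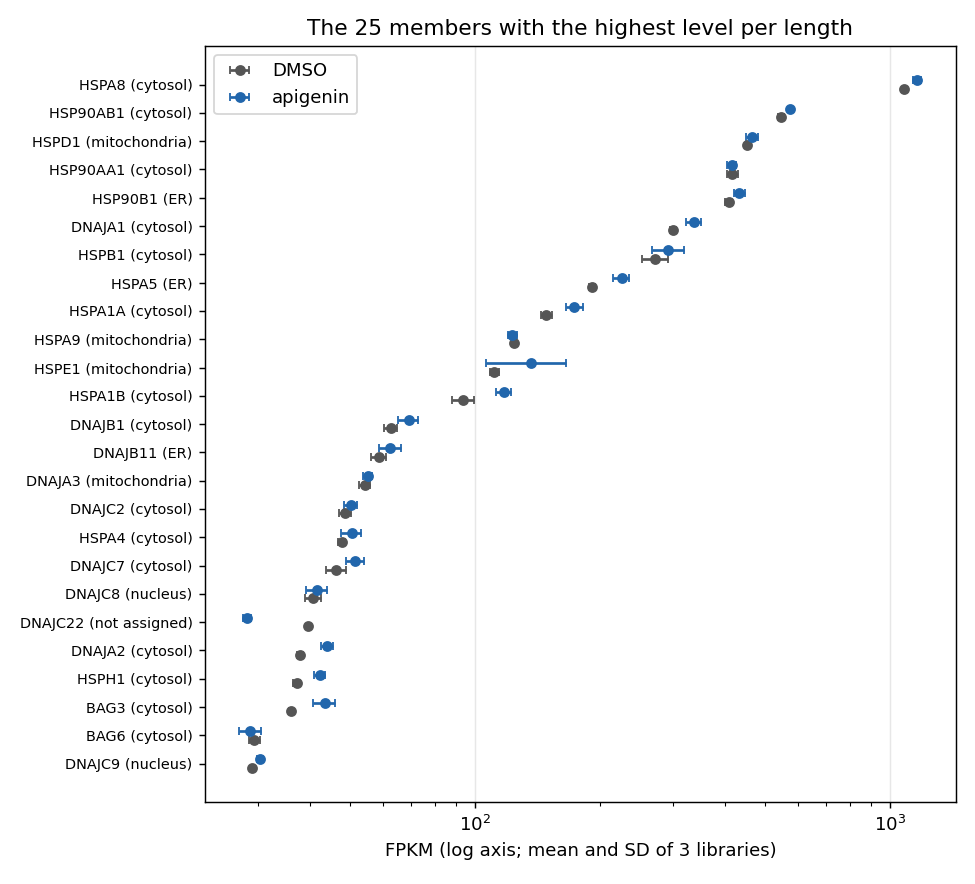
Level per length (FPKM, log axis, mean and SD of 3 libraries) of the 25 members with the highest mean with DMSO, with the compartment in brackets. HSPA8 stands first at 1085 FPKM with DMSO and 1165 with apigenin, and most pairs of points lie close together.

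Per length, HSPA8, the constitutive cytosolic HSP70, had the highest level, with 1085 ± 11.6 FPKM with DMSO (SD, n = 3). HSP90AB1, the constitutive HSP90, followed at 547 ± 10.2, then HSPD1, the mitochondrial HSP60 chaperonin, at 452 ± 2.19. HSP90AA1, the inducible HSP90, at 417 ± 12.6 and HSP90B1 (GRP94), the HSP90 of the ER, at 409 ± 7.4 did not differ beyond their spread. DNAJA1, a J-domain partner of HSPA8, at 301 ± 5.55 and HSPB1 (HSP27) at 272 ± 19.6 stood above HSPA5 at 192 ± 2.9, HSPA1A at 149 ± 4.53 and HSPA9 at 124 ± 1.43. In all, 11 members were over 100 FPKM with DMSO and 19 were under 1 FPKM.

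**Figure D3:**
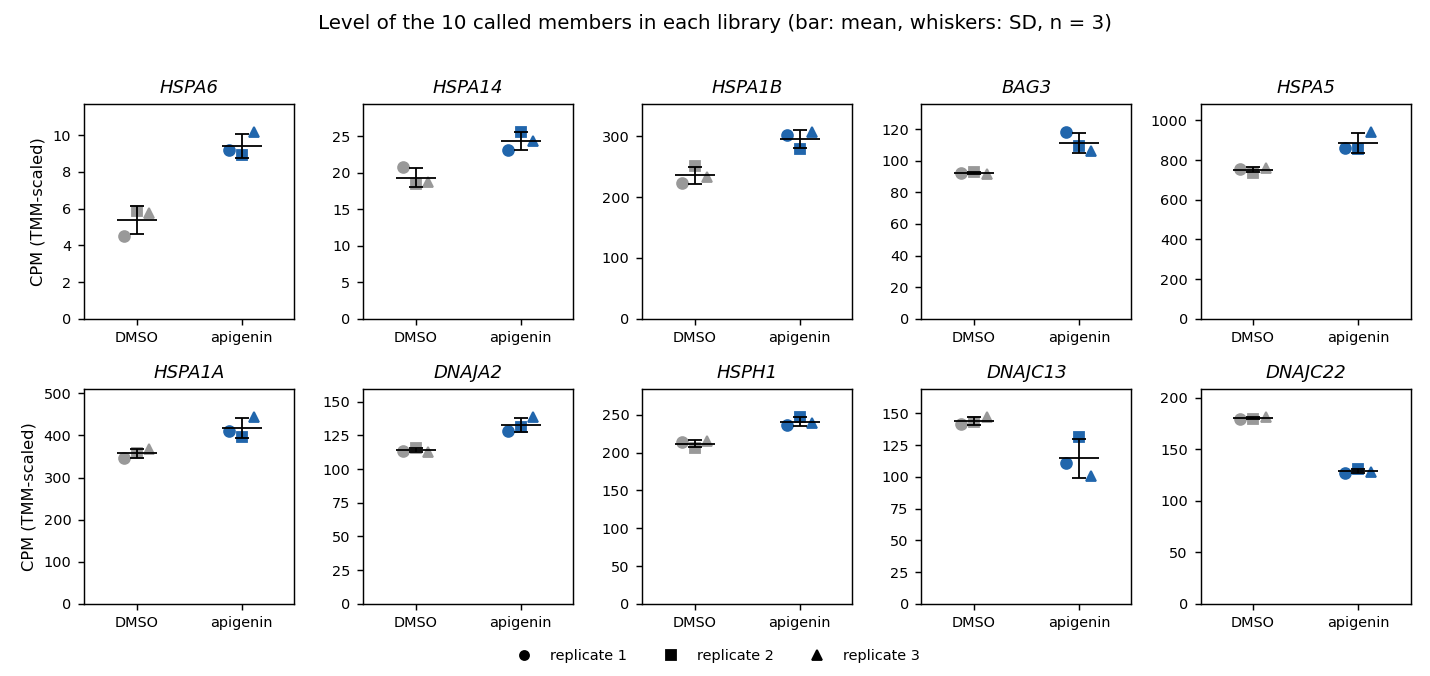
CPM of the 10 members that passed the test, by library; markers show the replicate, the bar is the mean and whiskers are the SD (n = 3). In each panel the DMSO and apigenin libraries do not overlap, with HSPA6 showing the largest relative rise and DNAJC22 the largest relative fall.

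HSPA6, an HSP70 gene known as strictly stress-inducible, had the largest fold change of the members. It lies on chromosome 1 at 161524540 to 161526894 (GRCh38). Its level was 4.49, 5.86 and 5.76 CPM with DMSO and 9.17, 8.90 and 10.2 CPM with apigenin. Every apigenin library was above every DMSO library, although the gene stayed at a low level. HSPA6 has a close copy, HSPA7, so its reads are uncertain to that extent. The log2 fold change was 0.81 ± 0.144 (SE; edgeR adjusted p = 0.0047), a rise of 75.3%, and 0.74 with the length trend removed. The call held when any one of the 6 libraries was left out, and was lost in 1 of 17 alternatives, limma on log2(FPKM + 1) without a filter (adjusted p = 0.056).

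HSPA1A and HSPA1B, the main stress-inducible HSP70 genes, lie close together on chromosome 6, at 31815543 to 31817942 and 31827738 to 31830254. HSPA1B was at 224, 251 and 232 CPM with DMSO and at 302, 279 and 307 CPM with apigenin. HSPA1A was at 346, 357 and 368 CPM with DMSO and at 412, 397 and 444 CPM with apigenin. Both pairs of groups were apart. The log2 fold change was 0.33 ± 0.061 for HSPA1B (adjusted p = 0.0063, edgeR) and 0.23 ± 0.057 for HSPA1A (adjusted p = 0.031, edgeR), and 0.27 and 0.16 with the length trend removed. The copies are near-identical, so the split of reads between them is uncertain. Their sum was 593 ± 20.6 CPM with DMSO and 714 ± 37.1 CPM with apigenin (SD, n = 3), a ratio of 1.20. HSPA1B did not pass without DMSO replicate 1, DMSO replicate 3 or apigenin replicate 1, and HSPA1A did not pass without any one of the DMSO libraries or apigenin replicate 1.

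HSPA14, an HSP70 that works at the ribosome with DNAJC2, lies on chromosome 10 at 14838306 to 14871741. It was at 20.8, 18.5 and 18.8 CPM with DMSO and at 23.1, 25.6 and 24.3 CPM with apigenin, with no overlap. The log2 fold change was 0.33 ± 0.090 (adjusted p = 0.042, edgeR), but 0.23 (adjusted p = 0.135) with the length trend removed, and it passed in 1 of the 6 fits that each leave out a library, the one without apigenin replicate 3. Its partner DNAJC2 was at 0.05 ± 0.060 (adjusted p = 0.67, edgeR), and at -0.01 with the length trend removed.

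HSPA8 itself was at 2499, 2440 and 2493 CPM with DMSO and at 2640, 2592 and 2762 CPM with apigenin. The groups were apart, but the log2 fold change of 0.11 ± 0.044 did not pass (adjusted p = 0.16, edgeR) and was 0.03 with the length trend removed. Its promoter held the 3-unit heat shock element at 2 places, as shown above. Of the 7 members that rose and had a promoter entry, 1 held the 3-unit form and 3 the 2-unit form. Of the 55 that did not pass, 3 held the 3-unit form and 10 the 2-unit form. As a family, 5 of 11 tested HSP70 genes rose in edgeR, against 2.76% of all tested genes. HSPA1A and HSPA1B are 2 of these 5 although the split of their reads is uncertain, and HSPA14 did not pass with the length trend removed. In the family, 0 fell by edgeR (4.22% of all tested genes), DESeq2 (7.37%) or limma (at most 1.47%). At an unadjusted p under 0.05 in edgeR, 0 were lower, against 12.6%. The median log2 fold change was 0.23, and 0.16 with the length trend removed.

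Among the release factors of HSP70, BAG3, which also links HSPB8 and HSP70 to selective autophagy, lies on chromosome 10 at 119651380 to 119677819. It was at 92.5, 93.1 and 91.5 CPM with DMSO and at 118, 109 and 106 CPM with apigenin. The DMSO libraries lay close together and all apigenin libraries were above them. BAG3 had a log2 fold change of 0.27 ± 0.061 (adjusted p = 0.020, edgeR), and 0.21 with the length trend removed. HSPH1 (HSP105), on chromosome 13 at 31134973 to 31162388, was at 214, 207 and 215 CPM with DMSO and at 236, 247 and 240 CPM with apigenin. Its log2 fold change of 0.19 ± 0.053 sat at the threshold (adjusted p = 0.0499, edgeR), and it was 0.24 with the length trend removed. Both lost the call without any one of the DMSO libraries or apigenin replicate 1. Both also lost it in every limma fit, and HSPH1 with RLE size factors, library totals only or the replicate block.

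The other BAG and HSP110 members did not pass. BAG2, an inhibitor of the ubiquitin ligase CHIP, was at 0.21 ± 0.069 (adjusted p = 0.080, edgeR), with the groups apart at 59.7, 61.5 and 64.1 CPM against 67.9, 69.5 and 77.2 CPM. It is a long gene by its counted length (7895 nucleotides), and with the length trend removed it was at 0.32 and passed (adjusted p = 0.0067, edgeR). BAG1 was at 0.21 ± 0.089 (adjusted p = 0.15, edgeR), with apigenin replicate 2 inside the DMSO range, and at 0.20 with the trend removed. HSPA4L, at 12191 nucleotides among the longest members, was at -0.16 ± 0.077 as counted and at 0.003 with the trend removed. HSPA4, another HSP110 release factor, was at 0.08 ± 0.059, and at 0.10 with the trend removed.

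Of the J-domain partners in the cytosol, DNAJA2 rose. It lies on chromosome 16 at 46955362 to 46973674 and was at 113, 116 and 113 CPM with DMSO and at 128, 131 and 139 CPM with apigenin, with no overlap. Its log2 fold change was 0.22 ± 0.057 (adjusted p = 0.036, edgeR) and 0.18 with the length trend removed, and the call was lost without any one of the DMSO libraries or apigenin replicate 1, and with the replicate block. DNAJA1 was at 702, 680 and 709 CPM against 753, 762 and 828 CPM, also without overlap, and did not pass (0.16 ± 0.053, adjusted p = 0.075, edgeR; 0.09 with the length trend removed). DNAJB1 (HSP40), the inducible partner of HSP70, was at 248, 253 and 266 CPM against 279, 267 and 304 CPM. Its groups were barely apart, and its log2 fold change of 0.14 ± 0.060 did not pass (adjusted p = 0.16, edgeR). DNAJB4 was at 0.21 ± 0.067 (adjusted p = 0.070, edgeR), and at 0.19 with the length trend removed, where it passed (adjusted p = 0.046, edgeR). The cytosolic genes with the highest and lowest changes among those not called included weakly read ones, HSPA2 (0.25 ± 0.305), HSPB6 (0.23 ± 0.536) and DNAJB5 (-0.09 ± 0.212), whose errors exceed their changes.

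HSP90 and the small heat shock proteins did not pass. HSP90AA1 was at 1643 ± 54.4 CPM with DMSO and 1639 ± 41.5 CPM with apigenin (SD, n = 3), a log2 fold change of -0.004 ± 0.047. HSP90AB1 was at 0.07 ± 0.045 and HSPB1 at 0.11 ± 0.074, and with the length trend removed they were at 0.03 and -0.07. HSPB8, the partner of BAG3, was at 0.15 ± 0.084 (adjusted p = 0.30, edgeR), and at 0.05 with the trend removed. In these families, 0 of 3 HSP90 and 0 of 5 small heat shock genes passed by edgeR, DESeq2 or limma, and 0 were under an unadjusted p of 0.05. The median of the small heat shock genes was 0.11 as counted and -0.07 with the trend removed.

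In the ER, HSPA5 (BiP) rose. It lies on chromosome 9 at 125234853 to 125241343 and was at 756, 736 and 762 CPM with DMSO and at 860, 856 and 942 CPM with apigenin. All apigenin libraries were above the DMSO libraries, and apigenin replicate 3 was the highest. This gave a log2 fold change of 0.24 ± 0.053 (adjusted p = 0.017, edgeR), a rise of 17.9%, and 0.23 with the length trend removed. The call was lost without any one of the DMSO libraries or apigenin replicate 1, and in every limma fit.

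The luminal partners of BiP did not pass. HSP90B1 was at 1152, 1110 and 1148 CPM with DMSO and at 1172, 1191 and 1264 CPM with apigenin (0.09 ± 0.049, adjusted p = 0.29, edgeR; 0.04 with the length trend removed). Its groups were apart by a small margin, and its promoter holds the ER stress element at 2 places. The J-domain partners DNAJB9 (ERdj4), DNAJB11 (ERdj3) and DNAJC3 (P58IPK), all known targets of the unfolded protein response, were at 0.06 ± 0.080, 0.10 ± 0.067 and -0.05 ± 0.074. With the length trend removed they were at -0.01, -0.02 and 0.03. The disulfide reductase DNAJC10 (ERdj5) was at -0.15 ± 0.059 (adjusted p = 0.14, edgeR) and, at 20144 nucleotides, at 0.08 with the trend removed. The membrane J-domain genes DNAJB14 and DNAJC14 were at -0.15 ± 0.083 and 0.10 ± 0.067, and at -0.08 and 0.10 with the trend removed.

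In mitochondria, HSPA9 was at 545, 539 and 554 CPM with DMSO and at 533, 532 and 564 CPM with apigenin (-0.01 ± 0.050). HSPD1 was at 1073, 1059 and 1071 CPM against 1063, 1084 and 1149 CPM (0.04 ± 0.049, and -0.03 with the length trend removed). Both pairs of groups overlapped. HSPE1 (HSP10), the lid of the HSPD1 chamber, was at 61.4, 63.7 and 61.1 CPM against 70.6, 62.0 and 95.5 CPM. Apigenin replicate 3 stood far above the rest and replicate 2 lay inside the DMSO range, and the log2 fold change of 0.29 ± 0.117 did not pass (adjusted p = 0.14, edgeR). HSPE1 is 557 nucleotides long, and with the length trend removed it was at 0.07. DNAJA3, the partner of HSPA9, was at 0.03 ± 0.056, DNAJC19, of the import motor, at 0.15 ± 0.086, and DNAJC15, at the inner membrane, at -0.01 ± 0.154; with the trend removed they were at -0.03, 0.04 and 0.08. The 3 members of the nucleus, DNAJC8, DNAJC9 and DNAJC17, were at 0.03, 0.06 and 0.09, or -0.07, -0.01 and 0.13 with the trend removed, and did not pass by edgeR, DESeq2 or limma, nor at an unadjusted p under 0.05.

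**Figure D4:**
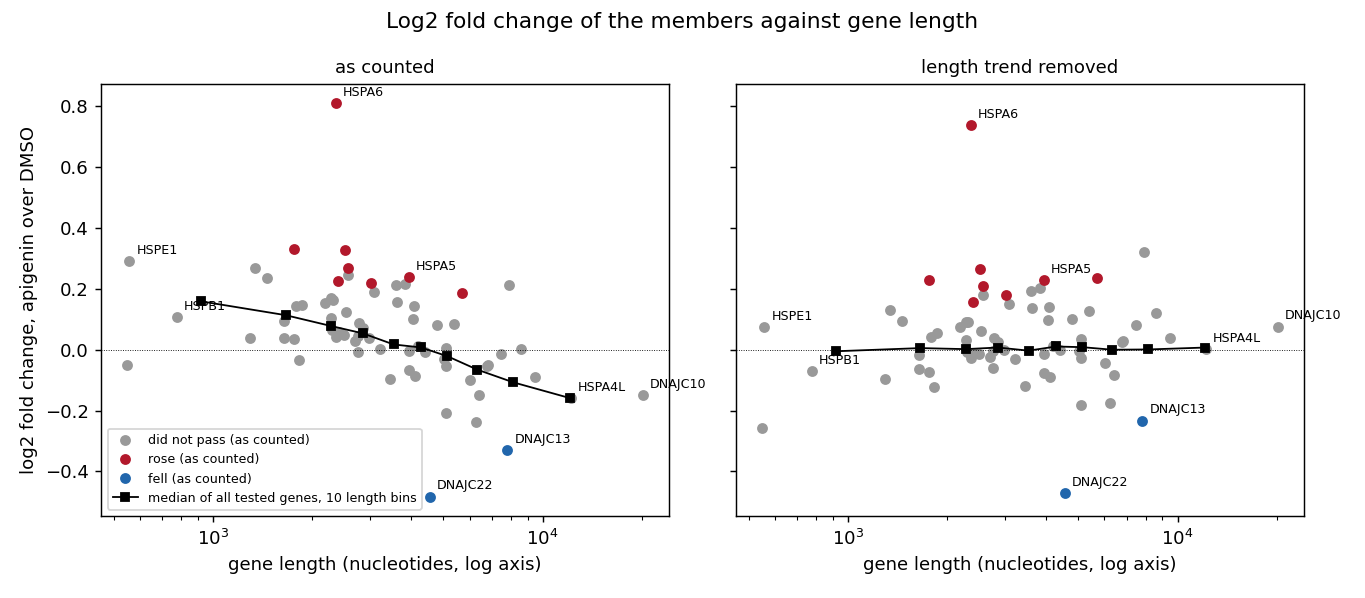
Log2 fold change of the tested members against gene length (nucleotides, log axis), as counted and with the length trend removed; black squares are medians of all tested genes in 10 length bins. The squares run from 0.16 to -0.16 as counted and lie near 0 after removal, where short HSPE1 and long DNAJC10 move to 0.07 and 0.08 while HSPA6, HSPA5 and DNAJC22 keep their side of 0.

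DNAJC22 fell, with the smallest adjusted p of the members. It encodes a membrane J-domain protein, the counterpart of the fly gene wurst, which acts in clathrin-mediated endocytosis, and it lies on chromosome 12 at 49346888 to 49353690. Its level was 180, 179 and 181 CPM with DMSO and 127, 131 and 128 CPM with apigenin. The replicates of each group lay close together and the groups were far apart. DNAJC22 had a log2 fold change of -0.48 ± 0.053 (adjusted p = 0.000133, edgeR), a change of -28.4%, and -0.47 with the length trend removed. It passed in all 17 alternatives.

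DNAJC13 (RME8), a J-domain protein of endosomes, lies on chromosome 3 at 132417502 to 132539032. It was at 142, 143 and 147 CPM with DMSO and at 111, 131 and 101 CPM with apigenin. The groups were apart, but apigenin replicate 2 lay close to the DMSO libraries. Its log2 fold change was -0.33 ± 0.081 (adjusted p = 0.028, edgeR) and -0.23 with the length trend removed (adjusted p = 0.0083, edgeR). It did not pass without any one of the DMSO libraries or apigenin replicate 1. Auxilin (DNAJC6), which uncoats clathrin vesicles, was at -0.24 ± 0.146, or -0.18 with the trend removed, and did not pass.

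Other genes of the folding pathways were read from 6 lists of partners. Of 81 tested, 5 rose (6.17%, against 2.76% of all tested genes) and 2 fell (2.47%, against 4.22%). Their median log2 fold change was 0.09, or 0.03 with the length trend removed, beside 0.004 and 0.003 for all tested genes. GRPEL1, the release factor of HSPA9 in the mitochondrial matrix, was at 59.4, 56.3 and 56.8 CPM with DMSO and at 75.9, 73.0 and 78.4 CPM with apigenin. Its groups were apart (0.40 ± 0.064, adjusted p = 0.0024, edgeR), it was at 0.34 with the trend removed, and it passed in all 17 alternatives. GRPEL1 overlaps another listed gene, so reads of the overlap cannot be assigned with certainty.

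PFDN2, a subunit of prefoldin, which hands new actin and tubulin to the chaperonin, rose by 0.44 ± 0.082 on the log2 scale (adjusted p = 0.0066, edgeR), and by 0.25 with the trend removed. The other 13 chaperonin and prefoldin genes did not pass in edgeR, whereas DESeq2 also called TCP1 and PFDN5 higher. All 14 were above 0 as counted and 10 with the trend removed, with medians of 0.13 and 0.04. ZFAND2A, a stress-induced regulator of the proteasome, rose by 0.33 ± 0.083 (adjusted p = 0.031, edgeR), and was at 0.34 with the trend removed. AHSA1, which activates the ATPase of HSP90, rose by 0.26 ± 0.067 (adjusted p = 0.036, edgeR), but was at 0.13 with the trend removed, where it did not pass (adjusted p = 0.063, edgeR). SEC61B, a subunit of the ER translocon, rose by 0.28 ± 0.078 (adjusted p = 0.048, edgeR), but at 564 nucleotides it was at 0.07 with the trend removed, where it did not pass (adjusted p = 0.46, edgeR).

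FKBP5, a cochaperone of HSP90, fell by 0.33 on the log2 scale (SE 0.087, adjusted p = 0.037, edgeR), and was at -0.19 with the trend removed, where it did not pass. ERO1A, the oxidase that supplies disulfides in the ER, fell by 0.22 (SE 0.063, adjusted p = 0.0499, edgeR), and was at -0.18 with the trend removed. PFDN2 did not pass without DMSO replicate 1 or apigenin replicate 1, and ZFAND2A, AHSA1, SEC61B, FKBP5 and ERO1A did not pass without any one of the DMSO libraries or apigenin replicate 1. SEC61B was also lost without apigenin replicate 3. Of the 5 heat shock factors, 0 passed by edgeR, DESeq2 or limma, and HSF1 alone was under an unadjusted p of 0.05. HSF1 was at 109 ± 0.376 CPM with DMSO and 122 ± 7.56 CPM with apigenin (SD, n = 3), a log2 fold change of 0.17 ± 0.061 (adjusted p = 0.11, edgeR), or 0.09 with the trend removed, and it overlaps DGAT1.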

How the data were processed

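Whether counting used strand is not stated, and tool versions and apigenin dose are likewise unknown here. Reads were trimmed with fastp, aligned with HISAT2 and counted with HTSeq on GRCh38 (hg38), per the submitters' processing notes. The authors deposited, for each library, raw counts per gene and FPKM. The deposited FPKM equalled count over a fixed gene length over the library total for 100% of genes within a relative tolerance of 0.0001, so they hold no further information. The median length they imply was 3289 nucleotides.

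The counts were fitted in edgeR 4.0.16 (R 4.3.3) with TMM scaling, the default low-count filter, the quasi-likelihood test and Benjamini-Hochberg adjustment over all 15173 genes at 0.05. The fit was also run on simulated data. The fold changes put into single genes there were larger than those of all called members but HSPA6. That run therefore says nothing about calls of smaller size. SE is the log2 fold change over the square root of F. CPM is the count relative to the TMM-scaled library total. Alternatives used DESeq2 1.42.0, limma 3.58.1 on log2(FPKM + 1) or log2(FPKM + 0.1) with or without a filter of 0.5 FPKM in 3 libraries, other scalings and filters, a replicate block, each library left out, and an offset for each library's lowess trend (span 0.3, prior count 2) on gene length. Leaving out an apigenin library with that trend removed was added after seeing the data. Members and partner lists were chosen with earlier results of these data known. Genes named are every called member and partner, a set of well-known members, HSF1, the 2 highest and 2 lowest uncalled changes in the cytosol, ER and mitochondria, and the most abundant member of each family. BAG1, BAG2, DNAJB4, DNAJB6, DNAJC6, HSPB8 and the nuclear members fall outside that rule and were chosen after their values were seen. Positions and promoters are from RefSeq on GRCh38.p14. A search of protein ends was planned and not run. Replicates are labelled biological, and the labels name no separate cultures, so p-values measure the spread between these samples.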

Additional observations from a re-analysis of the deposited data

How the results depend on the processing

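Under other tests, the 8 members that rose became 2 with limma on log2(FPKM + 1), 1 with log2(FPKM + 0.1) and 0 without the filter, and the 2 that fell became 1, 1 and 1. Over all genes, 419 rose and 641 fell. With DESeq2 658 rose. Without a low-count filter 865 rose and 1096 fell. With the length trend removed 702 rose, and 828 with the replicate block as well. With limma, 194, 109 and 123 rose and 185, 105 and 97 fell, in the order above. The partners that rose went from 5 to 9 with DESeq2, 9 with no filter, and 2, 1 and 1 with limma. The partners that fell went from 2 to 1 with RLE size factors, 1 with library totals only, 1 with the replicate block, and 0, 0 and 0 with limma.

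Leaving out 1 library gave between 1 and 15 rises and 1 and 5 falls among members, 103 and 1344 rises and 157 and 1546 falls among all genes, and 1 and 24 rises and 0 and 5 falls among partners. The cytosolic median ran from 0.0785 to 0.165. With the length trend removed as well, it was 0.0772 without apigenin replicate 2 and 0.0715 without apigenin replicate 3, and 1 member fell without apigenin replicate 1. The highest counts came without apigenin replicate 2. The cause was not tested.

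Signs were followed only for the genes named by the rule above. Among them, the sign of the log2 fold change turned with the length trend removed, without and with the replicate block, for DNAJA3 (-0.0251 and -0.0253), DNAJB11 (-0.0186 and -0.0178), DNAJB9 (-0.0105 and -0.00947), DNAJC10 (0.0756 and 0.0739), DNAJC15 (0.0827 and 0.0703), DNAJC2 (-0.0148 and -0.0144), DNAJC3 (0.0271 and 0.0265), HSPA4L (0.00268 and 0.00276), HSPB1 (-0.0717 and -0.0698) and HSPD1 (-0.0278 and -0.0281). With a library left out, it turned for DNAJB5 (-0.240 to 0.0248), DNAJC15 (-0.178 to 0.0805), DNAJC3 (-0.113 to 0.000706), HSP90AA1 (-0.0298 to 0.0182), HSPA2 (-0.0707 to 0.391), HSPA9 (-0.0373 to 0.00454) and HSPB6 (-0.126 to 0.551). None of these passed in the reported test. Members outside that rule also turned, such as HSPB11 (0.039 as counted and -0.0951 with the length trend removed).

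Between samples of equal replicate number, the correlations of deviations were -0.0173, -0.0194 and -0.0482. With 3 libraries a group, these values neither show nor exclude a shared batch behind the numbers. As a block, the replicate numbers left 6 members rising, without DNAJA2 and HSPH1, and 2 falling, with 455 rises and 776 falls over all genes. Precision is limited by 3 libraries a group, by the gap between the apigenin libraries (chi-square over degrees of freedom of 8.81 to 27.5, against 4.35 to 5.15 with DMSO) and by low counts in genes such as HSPB6 and HSPA2.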
